A study of Mus musculus with 12 samples.

Results

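The D-type cyclins, their kinases CDK4 and CDK6, and the CDK inhibitors of the Cip/Kip and INK4 families were examined as 10 genes chosen by symbol, *Ccnd1*, *Ccnd2*, *Ccnd3*, *Cdk4*, *Cdk6*, *Cdkn1a*, *Cdkn1b*, *Cdkn2a*, *Cdkn2c* and *Cdkn2d*, of 25860 genes listed in the RNA-seq table. All 10 were present in the table, and 22 of the 23932 ATAC-seq peaks in the authors' deposited list carried the name of one of them. RNA-seq and ATAC-seq were performed on CD8+ progenitor T cells sorted from pancreatic lymph nodes, and each assay had 3 libraries of either genotype. All cells came from female mice on the nonobese diabetic (NOD) background carrying the transgenic 8.3 T cell receptor, which recognizes the β cell antigen IGRP. The first group, WT, was of the control genotype that the study describes for its NOD line, littermates with the floxed alleles of *Kdm6a*, the X-linked gene for UTX, but without Cre. The second, UTX TCD, carried the same floxed alleles and a Cre transgene driven by the *Lck* promoter, which is active in T cells from the thymus onward and is not limited to CD8+ cells. The line had been backcrossed from C57BL/6 to NOD, and the age of the mice behind these libraries is not given in the sources used here. The labels describe the gate as Ly108 without CXCR6, and the study's methods describe progenitors by Ly108 without CD39.

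D-type cyclins couple growth factor, cytokine and antigen receptor signals to the cell cycle by activating CDK4 and CDK6, which phosphorylate the retinoblastoma family and release E2F transcription factors in G1. INK4 proteins bind CDK4 and CDK6 directly, whereas Cip/Kip proteins act mainly on CDK2 complexes and also help cyclin D–CDK4 complexes to assemble. In T cells, cyclin D2 and cyclin D3 predominate, and p27 is a marker of quiescence that is degraded on activation.

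RNA-seq values were counts divided by 1 size factor per library, called normalized counts here, and the depth of replicates 1 to 3 was 146456724, 144503203 and 193568919 reads for WT, against 61512402, 175462433 and 187275082 reads for UTX TCD. Replicate 1 of UTX TCD was the shallowest. *Kdm6a*, the deleted gene, was counted at 28365, 28949 and 29172 in WT and at 24158, 24792 and 24579 in UTX TCD. The genotypes did not overlap for *Kdm6a*, and its values were lower by less than the fold limit (log2 fold change -0.23, SE 0.0373, limma adjusted p = 0.00114). A count per gene cannot tell deleted exons from those that remain. The limma test was run on log2(normalized count + 1) for every gene whose mean over the 6 libraries reached 10, and all log2 fold changes are UTX TCD over WT on that scale, which understates the change of low genes. A gene was called at a Benjamini-Hochberg adjusted p under 0.05 together with an absolute log2 fold change over 0.5.

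Among the 10 genes, 9 passed the filter and were tested, and 3 were called, *Cdkn1a*, *Cdk6* and *Cdkn2c*, all higher in UTX TCD. Over all 14459 genes tested, 17.6% were called, 10.5% higher and 7.05% lower. The median log2 fold change of the 9 genes was 0.26, beside -0.000181 over all genes tested. The normalized counts of the genotypes did not overlap for 7 of the 9 genes, 5 of them higher and 2 lower in UTX TCD, while 51.9% of all genes tested did not overlap in either direction. *Ccnd3* and *Cdkn2d* had adjusted p-values under 0.05 but did not reach the fold limit. *Ccnd1*, *Ccnd2*, *Cdk4* and *Cdkn1b* had adjusted p-values above 0.05, and *Cdkn2a* was not tested because it was read almost nowhere.

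**Figure D1:**
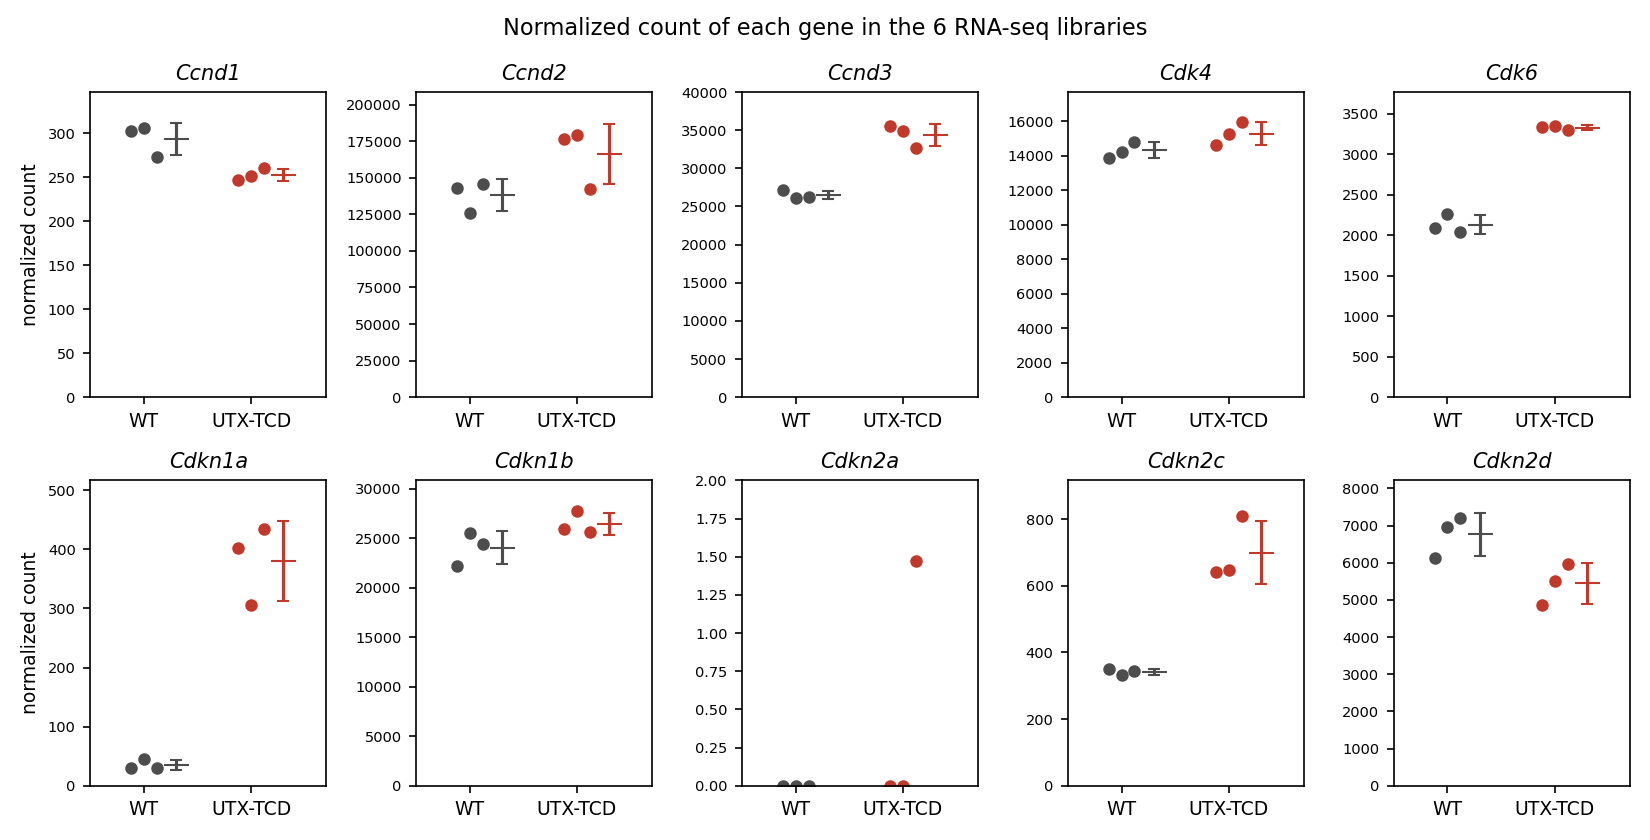
Normalized count (y axis, linear from 0) of each of the 10 genes in every RNA-seq library, 3 WT (grey) and 3 UTX TCD (red); each point is a library in the order of replicates 1 to 3, and the bar beside the points is the mean ± SD, left out for *Cdkn2a*. The points of the genotypes lie apart for *Ccnd1*, *Ccnd3*, *Cdk6*, *Cdkn1a*, *Cdkn1b*, *Cdkn2c* and *Cdkn2d*, and *Cdkn2a* is at 0 in 5 of 6 libraries.

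Divided by exon length in GENCODE vM21, the mean level in WT was highest for *Ccnd2*, at 14696 ± 1142 normalized counts per kb (SD, n = 3). *Cdkn1b* followed at 5287 ± 372 per kb, *Cdk4* at 4404 ± 143, *Cdkn2d* at 4300 ± 366 and *Ccnd3* at 3016 ± 63.2 (SD, n = 3 each). *Cdk4* and *Cdkn2d* did not differ beyond their spread in that order. A second tier began well below these, with *Cdk6* at 152 ± 8.43 per kb, *Cdkn2c* at 127 ± 3.22, *Ccnd1* at 62.4 ± 3.88 and *Cdkn1a* at 9.84 ± 2.55 (SD, n = 3 each), and *Cdkn2a* was at 0. Placed among all tested genes of known exon length, the WT level per kb lay at percentile 97.5 for *Ccnd2* and at percentile 9.15 for *Cdkn1a*. In UTX TCD the order changed at 3 places. *Ccnd3*, at 3917 ± 171 per kb, came before *Cdkn2d*, at 3458 ± 355. *Cdkn2c*, at 260 ± 35.3 per kb, came level with *Cdk6*, at 238 ± 2.18, a gap smaller than the spread. *Cdkn1a*, at 107 ± 19.02 per kb, came before *Ccnd1*, at 53.7 ± 1.39 (SD, n = 3 each).

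Cyclin D2 mRNA (*Ccnd2*, chr6:127125162-127152193, minus strand, GRCm38/mm10) was counted at 143103, 125958 and 145759 in WT and at 176282, 179503 and 142359 in UTX TCD. Replicate 3 of UTX TCD lay inside the WT range, so the genotypes overlapped, while its other libraries lay above every WT library. *Ccnd2* was not called (log2 fold change 0.26, SE 0.0941, limma adjusted p = 0.0538). Without replicate 3 of UTX TCD the value was 0.37 with an adjusted p of 0.00505 from limma, still short of the fold limit, and over all alternatives the adjusted p ranged from 0.00505 to 0.177. Cyclin D3 (*Ccnd3*, chr17:47505051-47599691, plus strand), which drives the expansion of thymocytes after their β-selection, was counted at 27102, 26079 and 26217 in WT and at 35574, 34840 and 32693 in UTX TCD. Each UTX TCD library lay above each WT library. The difference exceeded the spread of the replicates but not the fold limit (log2 fold change 0.38, SE 0.0448, limma adjusted p = 0.000223). Cyclin D1 (*Ccnd1*, chr7:144929931-144939925, minus strand), the main D cyclin of many epithelial tissues, was read at 303, 306 and 273 normalized counts in WT and at 247, 251 and 260 in UTX TCD. All UTX TCD libraries were below all WT libraries, but the log2 fold change of -0.21 (SE 0.122) had an adjusted p of 0.195 from limma.

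CDK4 and CDK6 are the paralogous kinases that D cyclins activate. *Cdk6* (chr5:3341485-3531008, plus strand) was counted at 2083, 2262 and 2039 in WT and at 3338, 3349 and 3291 in UTX TCD. The genotypes were well apart, and the UTX TCD libraries were nearly equal to one another. *Cdk6* rose 1.56-fold by the ratio of means (log2 fold change 0.65, SE 0.0595, limma adjusted p = 4.97e-05). *Cdk4* (chr10:127063534-127067920, plus strand) was counted at 13882, 14238 and 14802 in WT and at 14623, 15262 and 15979 in UTX TCD. Here replicate 1 of UTX TCD lay below replicate 3 of WT, and *Cdk4* was not called (log2 fold change 0.10, SE 0.0475, limma adjusted p = 0.142). The value was 0.06 without replicate 3 of UTX TCD, and 0.16 with a limma adjusted p of 0.0233 when libraries were scaled to the same sum. Exons of *Cdk4* share 641 bases, 19.7% of their length, with *Tspan31* on the opposite strand, and *Tspan31*, named after its values were seen, was called higher at a log2 fold change of 0.51. The strand setting of the authors' counting is not given in the sources used here, so how reads in the shared bases were assigned is uncertain. The same uncertainty holds for the 23.4% of *Ccnd1* exon length shared with an opposite-strand gene, and for smaller stretches of *Ccnd2*, *Ccnd3*, *Cdk6* and *Cdkn1a*.

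The Cip/Kip inhibitor p21 is encoded by *Cdkn1a* (chr17:29090976-29100727, plus strand), a well-known target of p53 that can arrest cells in G1. Its normalized count was 29.7, 45.4 and 29.7 in WT and 403, 305 and 435 in UTX TCD. The lowest UTX TCD library was several times above the highest WT library. *Cdkn1a* rose 10.9-fold by the ratio of means, the largest change among the 9 genes (log2 fold change 3.42, SE 0.232, limma adjusted p = 9.19e-06). These levels rested on 30, 46 and 39 reads in WT and on 179, 381 and 590 reads in UTX TCD. p27, encoded by *Cdkn1b* (chr6:134920401-134925513, plus strand), is the Cip/Kip protein of resting lymphocytes. *Cdkn1b* was counted at 22215, 25543 and 24440 in WT and at 25958, 27760 and 25657 in UTX TCD. The lowest UTX TCD library lay just above the highest WT library, and *Cdkn1b* was not called (log2 fold change 0.14, SE 0.0584, limma adjusted p = 0.0889). Leaving out a library moved this value between 0.08 and 0.18, and over all alternatives its adjusted p ranged from 0.0241 to 0.313.

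Of the INK4 inhibitors, only *Cdkn2c* was called. p18, encoded by *Cdkn2c* (chr4:109660876-109667189, minus strand), is an INK4 protein that restrains lymphocyte proliferation, and *Cdkn2c* was counted at 349, 332 and 343 in WT and at 641, 648 and 809 in UTX TCD. All UTX TCD libraries were above the WT libraries, with replicate 3 the highest. *Cdkn2c* rose 2.05-fold by the ratio of means (log2 fold change 1.02, SE 0.120, limma adjusted p = 0.000198). The INK4 protein of *Cdkn2d* (chr9:21288410-21291407, minus strand) is p19 INK4d. *Cdkn2d* was counted at 6119, 6965 and 7218 in WT and at 4854, 5508 and 5966 in UTX TCD. Every UTX TCD library lay below every WT library, by less than the fold limit (log2 fold change -0.32, SE 0.0858, limma adjusted p = 0.0171). Without replicate 2 or replicate 3 of WT, its adjusted p from limma was 0.0536 and 0.0579, and over all alternatives it ranged from 0.00174 to 0.0579. *Cdkn2a* (chr4:89274471-89294653, minus strand) encodes p16 INK4a and, from another first exon and reading frame, the MDM2 inhibitor ARF. It was at 0 in 3 of 3 WT libraries and in replicates 1 and 2 of UTX TCD, and at 1.47 normalized counts in replicate 3, which is 2 reads (exact 95% Poisson interval 0.179 to 5.33 normalized counts). In the libraries at 0, 3 reads would correspond to 2.29 to 6.75 normalized counts, so lower levels could have gone unread at this depth. Reads without molecular identifiers are not independent molecules, and these limits cover counting error only.

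Ratios of related genes within a library, taken on normalized count + 1, depend very little on how the library was scaled, and 3 libraries against 3 allow no exact permutation p below 0.1. The log2 ratio of *Cdk6* to *Cdk4* was -2.74, -2.65 and -2.86 in WT and -2.13, -2.19 and -2.28 in UTX TCD. Its means were apart by 0.55, with no overlap (two-sided exact permutation p = 0.1, n = 3 per genotype). For *Cdkn2d* to *Cdkn2c* the log2 ratio was 4.13, 4.39 and 4.39 in WT and 2.92, 3.09 and 2.88 in UTX TCD. That difference of -1.34 again had no overlap between genotypes (two-sided exact permutation p = 0.1, n = 3 per genotype). The log2 ratio of *Ccnd3* to *Ccnd2* was -2.40, -2.27 and -2.47 in WT and -2.31, -2.37 and -2.12 in UTX TCD. These ranges overlapped, and the difference of 0.12 had a two-sided exact permutation p of 0.4 (n = 3 per genotype).

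Profiles across the 6 libraries were compared with that of *Cdkn1a*, the gene with the smallest adjusted p among the 9. By Euclidean distance between profiles of log2(normalized count + 1), each centred on its mean over the libraries, the 5 nearest of the other tested genes were *Slc7a7* (distance 0.20), *Mageh1* (0.40), *Ier5l* (0.57), *Cygb* (0.62) and *Zfp608* (0.65). *Mageh1*, with 3, 6 and 5 reads in WT, and *Ier5l*, with 2 in each WT library, passed the filter only through UTX TCD, so their likeness to *Cdkn1a* among WT libraries rests on few reads. *Slc7a7*, a light chain of amino acid transporters, was counted at 45.6, 69.1 and 39.7 in WT and at 580, 484 and 621 in UTX TCD. As for *Cdkn1a*, replicate 2 was the highest WT library and the lowest UTX TCD library.

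Genes that act around the cyclin D kinases were read from lists of 52 genes, of which 51 were tested, with 20 called higher and 1 lower in UTX TCD, beside 10.5% higher and 7.05% lower over all genes tested. The median log2 fold change over these 51 genes was 0.35. Downstream of the kinases, the pocket proteins were not called, with *Rb1* the farthest from 0 (log2 fold change 0.35, SE 0.0381, limma adjusted p = 0.000140). Of 10 E2F and DP factors, 6 rose and none fell. *E2f1* rose from 414, 540 and 512 normalized counts in WT to 1341, 1566 and 1482 in UTX TCD. Its log2 fold change was 1.59, beside 1.68 for *E2f7* and 1.17 for *E2f8*, both repressors of the family. *Tfdp1* (0.76), *E2f2* (0.71) and *E2f3* (0.62) were the others that rose. Of 5 genes in the cyclin E, cyclin A and CDK2 list, which act at the entry into S phase, 4 rose, *Ccne2* by 1.13, *Ccna2* by 1.02, *Cdk2* by 0.79 and *Cdc25a* by 0.58 on the log2 scale. *Ccne1* was at -0.31 (limma adjusted p = 0.00498) and did not reach the fold limit. None of the 3 genes of the CDK-activating kinase was called, the farthest from 0 being *Mnat1* at -0.21. Among 6 genes for the turnover of p27 and D cyclins, *Cks1b*, a cofactor of the ligase that degrades p27, rose by 0.58 on the log2 scale. Of the inhibitors not among the 10 genes, *Cdkn1c* was at 0.36 (adjusted p = 0.428 from limma), or 0.13 to 0.58 with a library left out, and *Cdkn2b*, next to *Cdkn2a* on chromosome 4, fell under the filter.

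Against the same 10.5% called higher and 7.05% called lower over all genes tested, 5 of 7 proliferation markers rose, *Top2a* by 1.19, *Mki67* by 1.08, *Cdk1* by 0.96, *Ccnb1* by 0.89 and *Mcm2* by 0.57 on the log2 scale. *Mki67*, absent from resting cells, was counted at 13571, 14836 and 13395 in WT and at 27436, 26910 and 34778 in UTX TCD. *Mcm5* was at 0.45 and *Pcna* at -0.05, which turned to 0.0117 when the libraries were scaled to the same sum. In sorted bulk cells, more cells in cycle and more of an mRNA per cell cannot be told apart, and the part of cycling cells in the changes of *Cdkn1a*, *Cdk6* and *Cdkn2c* was not tested. Among 11 other p53 targets, 4 rose and 1 fell, beside those shares over all genes. *Bbc3* rose by 1.41 and *Sesn2* by 0.89 on the log2 scale, and *Sesn1* fell by 0.59. *Phlda3* rose from 99.1, 148 and 112 normalized counts in WT to 531, 508 and 601 in UTX TCD. *Zmat3* rose from 6509, 7103 and 6521 normalized counts in WT to 14050, 14270 and 14733 in UTX TCD. Replicate 2 was the highest WT library for *Phlda3*, *Zmat3* and *Bbc3*, the last at 763, 1255 and 760 normalized counts in WT. Without replicate 2 of WT, the log2 fold change of *Bbc3* was 1.65. Without replicate 3 of UTX TCD, *Sesn1* was at -0.50, just inside the fold limit. *Trp53* itself was at 0.05 (adjusted p = 0.347 from limma), at 0.02 without replicate 2 of WT, and at 0.12 with libraries scaled to the same sum (limma adjusted p = 0.0344). Of 5 upstream transcription factors none was called, though 3 had a limma adjusted p under 0.05 without reaching the fold limit. Farthest from 0 was *Klf2*, a factor of T cell quiescence, at -0.46 (SE 0.048, limma adjusted p = 0.000109).

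**Figure D2:**
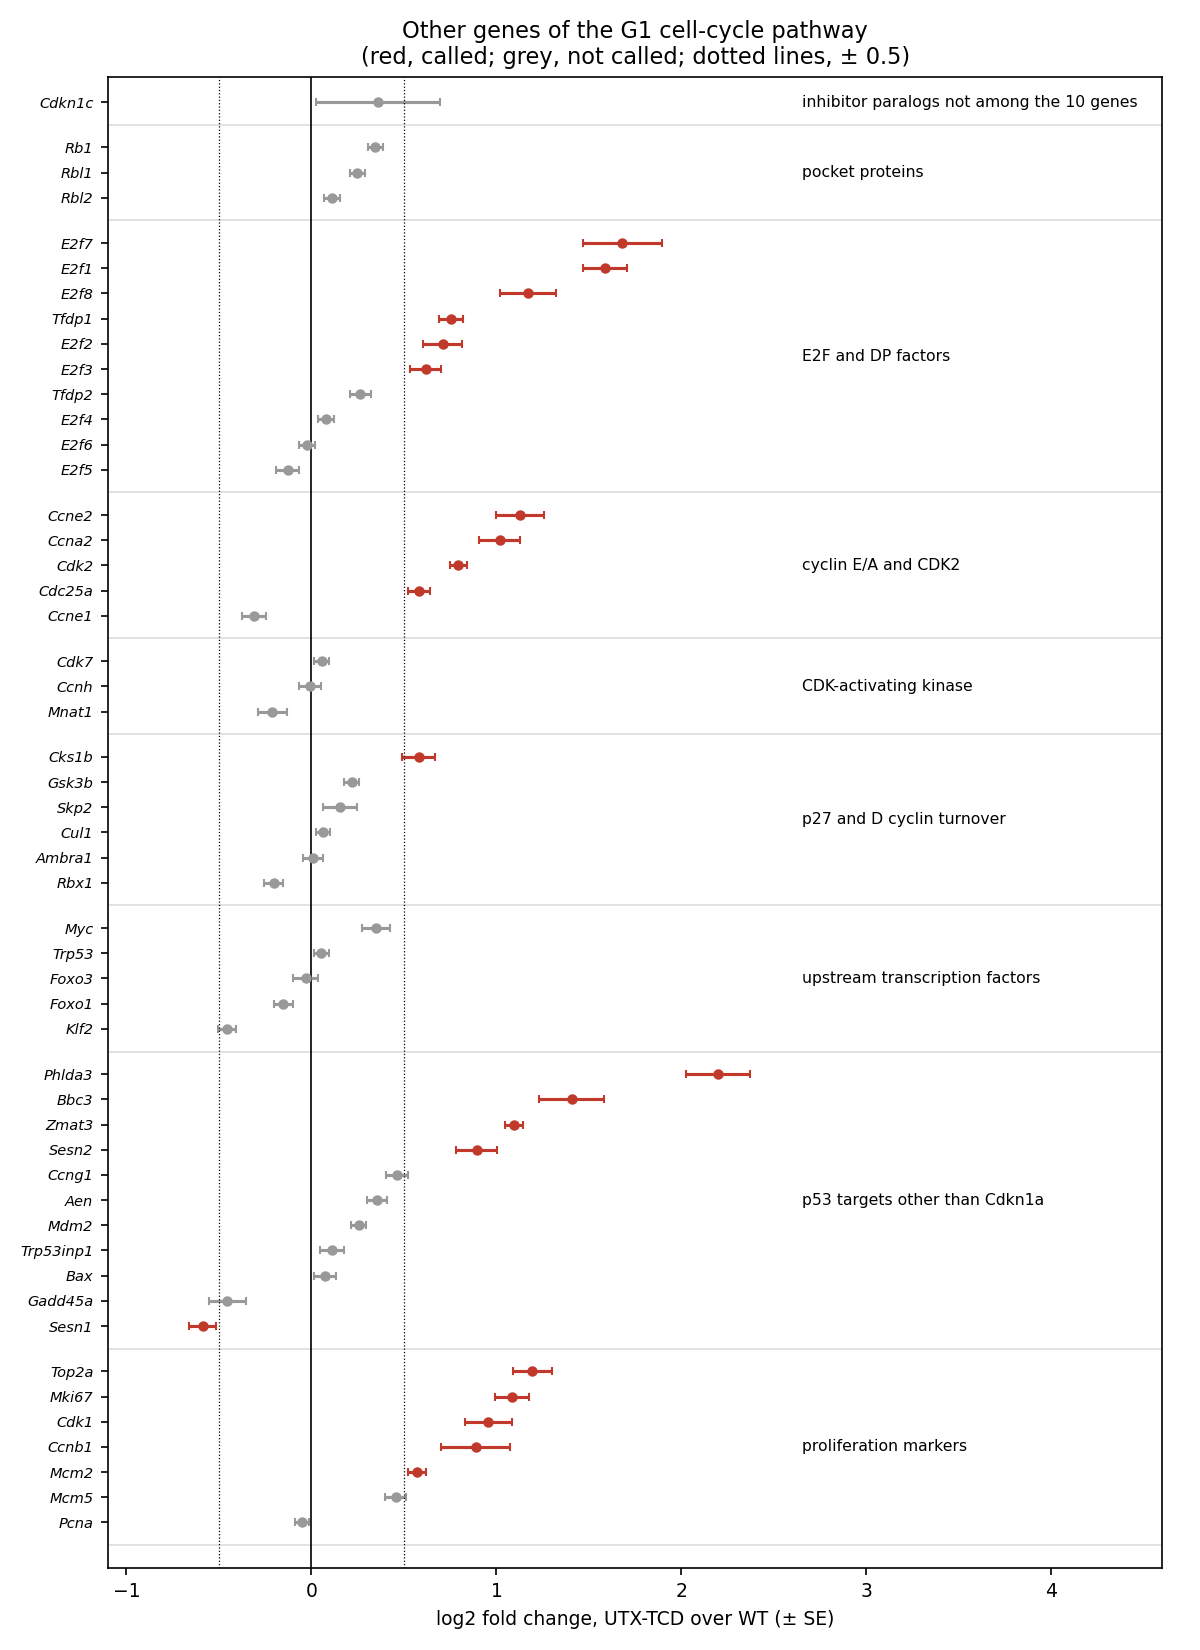
Log2 fold change of UTX TCD over WT (x axis) with its SE from limma for each of the 51 tested genes around the cyclin D kinases, grouped by list; red marks called genes, grey the others, and dotted lines the fold limit of 0.5. Most red points lie right of 0, in the E2F, cyclin E/A, p53 target and proliferation lists, and *Sesn1* is the called gene to the left.

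The label of the cells was checked against their markers. *Cd8a*, *Cd8b1*, *Cd3e* and *Cd3d* summed to 635703, 611994 and 616677 normalized counts in WT and to 654339, 635026 and 573236 in UTX TCD, and the sums overlapped. None of the 4 was called, but their values did not move together, with log2 fold changes of -0.37 for *Cd8b1*, -0.28 for *Cd3d*, 0.17 for *Cd3e* and 0.13 for *Cd8a*, the first 3 at limma adjusted p under 0.05. The 5 progenitor markers, led by *Tcf7*, summed to 525385, 514666 and 483902 in WT and to 509208, 478486 and 502670 in UTX TCD, and none of them was called. The 5 effector markers, led by *Thy1*, which T cells express in general, moved with genotype, from 212565, 170564 and 208995 in WT to 59825, 60674 and 49643 in UTX TCD, with *Thy1* and *Cxcr6* called lower. Of the B cell markers, *Cd79b* was called lower, from 2502, 1930 and 2465 in WT to 648, 633 and 470 in UTX TCD, and *Ms4a1*, at 5.94 to 73.0, was called higher. The 4 myeloid markers, led by *Cd68*, summed to 1216, 1217 and 1061 in WT and to 1100, 873 and 1022 in UTX TCD, which overlap. *Itgam* and *Csf1r* were called lower, while *Cd68* was above WT in every UTX TCD library without reaching the fold limit (log2 fold change 0.43, limma adjusted p = 0.0377). Of the 2 CD4 T cell markers, led by *Foxp3*, *Cd4* was called lower, and the sums of 339 to 407 in WT and 321 to 364 in UTX TCD overlapped. NK markers summed to at most 55.3 normalized counts, with *Ncr1* at 0 in 4 libraries, and erythroid markers to at most 146. Of the stromal markers, *Pecam1*, which T cells also express, led sums of 29619 to 31790 in WT and 33523 to 37676 in UTX TCD, and *Col1a1* was between 254 and 475. The part of these shifts in the changes of the 10 genes was not tested.

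ATAC-seq reads out open chromatin from transposase insertions. The deposited value of a peak is the authors' log2 concentration for each genotype over 3 libraries, so no spread between libraries is given, and the list held only peaks the authors had selected at an FDR under 0.05. A direction count is therefore read against the whole list, in which 68.8% of peaks were higher in UTX TCD. Of the 22 peaks assigned to the 10 genes, 15 were higher and 7 lower, a share of 68.2% higher. Within 10 kb of the assigned start site, 9 of 10 peaks were higher, where the share over all 8964 such peaks was 76.6%. Distances of assigned peaks are from the start site in the authors' annotation, which differs from the start of the gene in GENCODE vM21 for some genes, among them *Ccnd2* and *Cdk6*. *Cdk4*, *Cdkn1a*, *Cdkn1b* and *Cdkn2d* had no assigned peak.

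**Figure D3:**
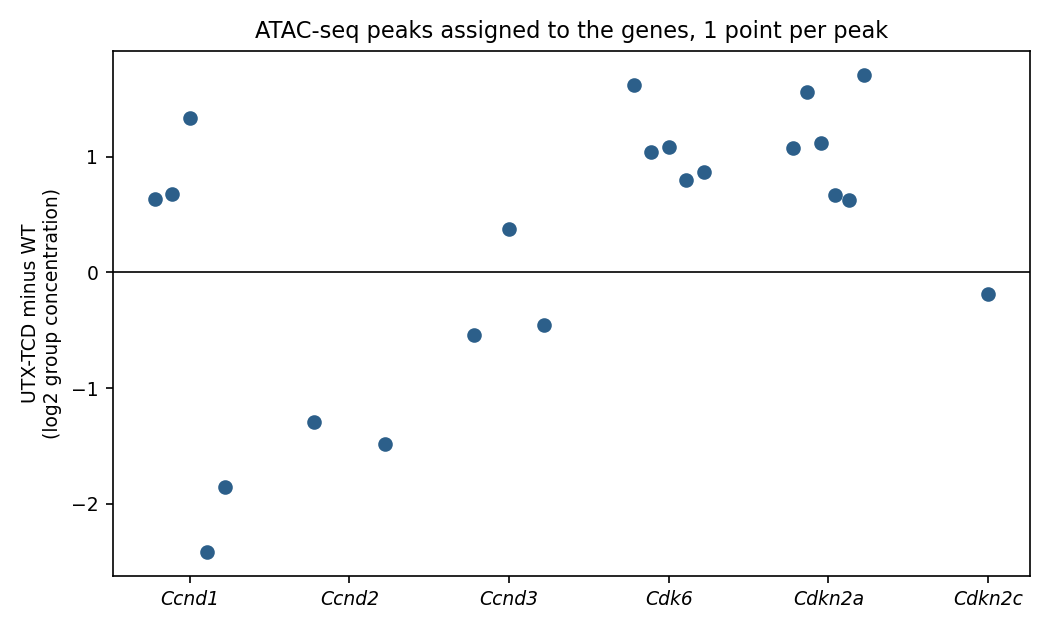
Difference in the authors' log2 group concentration, UTX TCD minus WT (y axis), for the 22 ATAC-seq peaks assigned to *Ccnd1*, *Ccnd2*, *Ccnd3*, *Cdk6*, *Cdkn2a* and *Cdkn2c*; each point is a peak, in order of position within a gene. All 5 peaks of *Cdk6* and all 6 of *Cdkn2a* lie above 0, both of *Ccnd2* lie below, and *Ccnd1* and *Ccnd3* have peaks on either side.

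*Cdk6*, called higher in RNA, had 5 peaks, all higher in UTX TCD. The largest difference was between genes at chr5:3146424-3146824, 197269 bases before the start site, from a log2 concentration of 3.57 in WT to 5.20 in UTX TCD. Of the others, 3 lay in intron 2 of 7 and 1 before the gene, with differences of 0.80 to 1.08. Inside the gene, peaks in intron 4 and intron 5 that were assigned to a neighbouring gene were also higher. *Cdkn2c*, also called higher in RNA, had a single peak, at its promoter (chr4:109666644-109667044), with a log2 concentration of 10.88 in WT and 10.70 in UTX TCD, slightly lower. *Cdkn1a* had none, and the nearest deposited peak lay 8.82 kb before its start (chr17:29081954-29082354, between genes, assigned to *Trp53cor1*), at 9.53 in WT and 10.22 in UTX TCD.

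*Cdkn2a*, with almost no reads, had 6 peaks, all higher in UTX TCD. The largest difference was at chr4:89294598-89294998, over the start of the ARF transcript, 1.71 above a WT value of 7.29. A second promoter peak, at chr4:89282089-89282489 over the start of the p16 INK4a transcript, went from 5.77 to 6.89. Between and after these, 3 peaks lay in introns and 1 past the end of the gene, with differences of 0.63 to 1.56. Accessibility at both promoters was thus higher in a gene whose mRNA was at or near 0 in both genotypes.

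D cyclin peaks went both ways. *Ccnd1* had 3 higher peaks within 4 kb of its start, the largest difference at chr7:144943283-144943683, 3558 bases before it, from 5.37 to 6.71. Its 2 lower peaks lay 39000 and 40054 bases before the start, the larger difference at chr7:144978725-144979125, from 5.29 to 2.87. *Ccnd2* had 2 assigned peaks, both lower, 11965 and 20675 bases before the start in an intron of the antisense transcript 9330179D12Rik. The larger difference was at chr6:127171523-127171923, from 7.90 to 6.41. Inside or at the end of *Ccnd2*, however, 3 deposited peaks assigned to other genes were higher, at chr6:127124726-127125126 (6.06 to 6.90), chr6:127126308-127126708 (6.07 to 6.66) and chr6:127142113-127142513 (9.34 to 9.66). Counting peaks within 10 kb of a gene body whatever gene they were assigned to, a choice made after seeing the data, gave 20 higher and 3 lower peaks over the 10 genes, beside 70.4% higher of the 18267 deposited peaks that lie as near to any gene of the RNA-seq table, and this difference was not tested. *Ccnd3* had 3 peaks in intron 1 of 6, with the only higher one at chr17:47531429-47531829 (11.56 to 11.94).

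**Figure D4:**
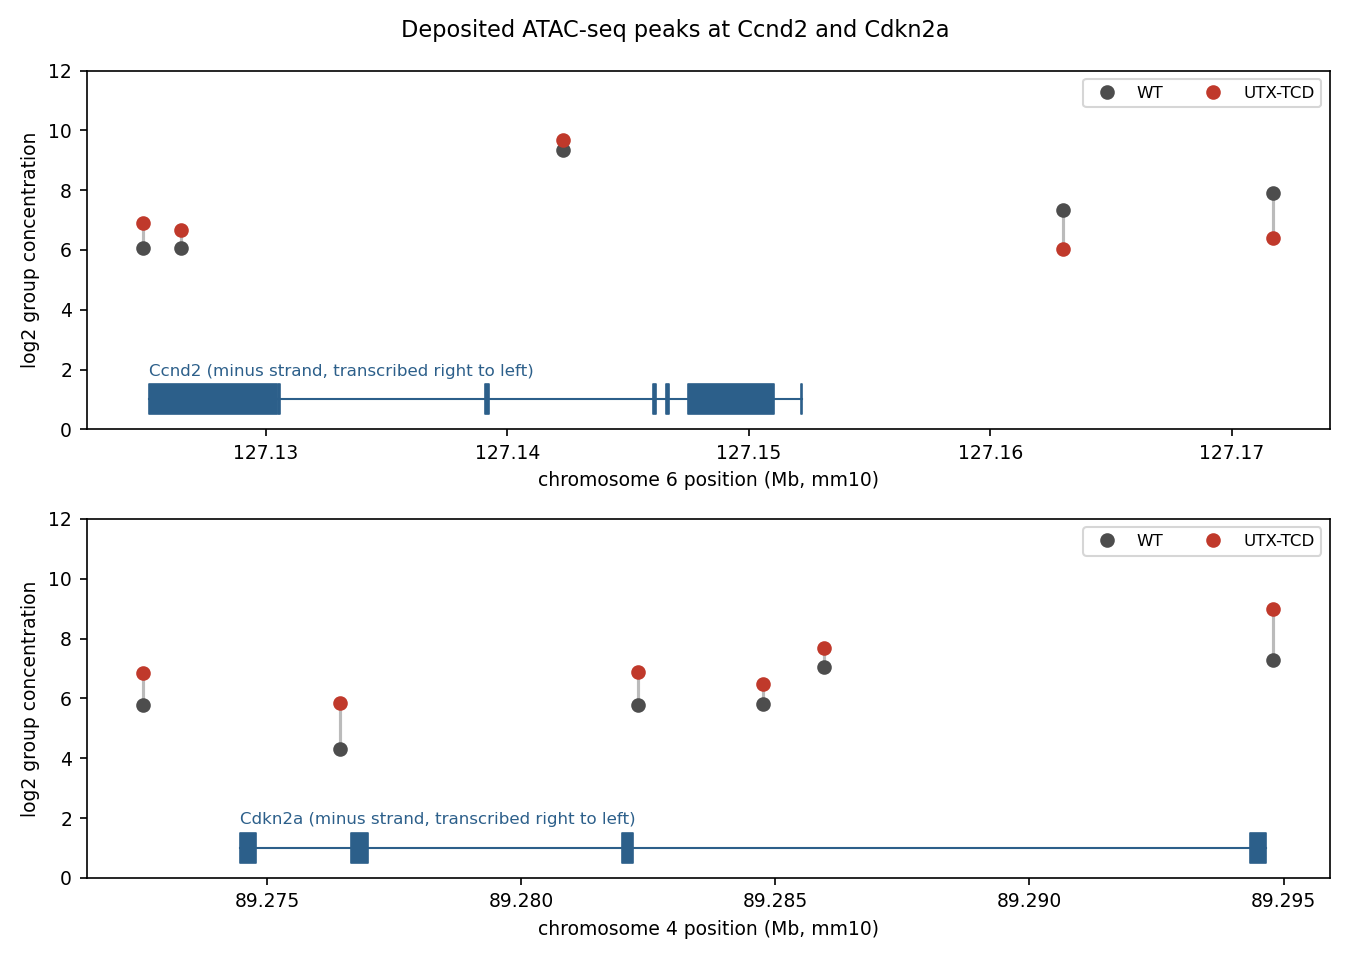
Log2 group concentration (y axis) of the deposited ATAC-seq peaks around *Ccnd2* (upper panel, chromosome 6) and *Cdkn2a* (lower panel, chromosome 4) by position in mm10 (x axis, Mb); grey points are WT, red points UTX TCD, and blue blocks the exons in GENCODE vM21. At *Ccnd2* the 2 peaks before the start are lower in UTX TCD and the 3 in or at the end of the gene higher, and at *Cdkn2a* all 6 peaks are higher.

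Sequences of the promoters and peaks that these changes touch were read from RefSeq and the reference genome of GRCm38.p6, which has the coordinates of mm10 and the sequence of C57BL/6J, not of NOD. RefSeq windows of 250 bases before to 50 after a start were at hand for 8 of the 10 genes, 12 windows in all. The promoter of *Cdkn1a* is shown because that gene changed most. The 250 bases before a start at the upstream end of the gene (chr17:29090729-29090978, plus strand) hold a p53 response element. The element was searched by name after seeing the data, with at most 1 mismatch outside its 2 cores. Which start these cells use was not examined. The element is in capitals, and 0.0548% of all 32851 promoter windows hold such a match. None of the 9 other p53 targets with a window had one.
Cdkn1a promoter: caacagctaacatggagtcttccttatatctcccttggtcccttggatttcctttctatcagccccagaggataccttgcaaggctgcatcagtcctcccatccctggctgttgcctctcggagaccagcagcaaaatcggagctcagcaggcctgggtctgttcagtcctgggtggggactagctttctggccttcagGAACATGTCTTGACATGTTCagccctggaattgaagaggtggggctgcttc

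The promoters of *Cdkn2a* and *Cdkn2c* are shown because deposited peaks lie over them, higher for *Cdkn2a* and lower for *Cdkn2c*, with CpG dinucleotides in capitals. On the minus strand, the ARF window (chr4:89294620-89294869) holds 40 CpG, the p16 INK4a window (chr4:89282193-89282442) 7 and the *Cdkn2c* window (chr4:109666757-109667006) 29. The ARF window also holds TTTCCCGC, one of 4 E2F motifs searched on both strands (TTTGGCGC, TTTCCCGC, TTTGCCGC and TTTCGCGC), at bases 152 to 159. An E2F motif was in 2.26% of all promoter windows and in no other window of the 10 genes.
Cdkn2a ARF promoter: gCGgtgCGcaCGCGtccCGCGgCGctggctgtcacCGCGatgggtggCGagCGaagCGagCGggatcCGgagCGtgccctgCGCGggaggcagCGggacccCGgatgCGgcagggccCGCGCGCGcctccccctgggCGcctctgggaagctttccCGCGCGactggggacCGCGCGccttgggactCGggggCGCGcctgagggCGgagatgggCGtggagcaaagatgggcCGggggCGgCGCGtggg
Cdkn2a p16INK4a promoter: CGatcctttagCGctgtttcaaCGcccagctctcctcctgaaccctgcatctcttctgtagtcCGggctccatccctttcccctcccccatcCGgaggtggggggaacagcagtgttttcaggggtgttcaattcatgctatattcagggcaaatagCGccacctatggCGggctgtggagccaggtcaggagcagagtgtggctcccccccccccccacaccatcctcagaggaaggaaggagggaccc
Cdkn2c promoter: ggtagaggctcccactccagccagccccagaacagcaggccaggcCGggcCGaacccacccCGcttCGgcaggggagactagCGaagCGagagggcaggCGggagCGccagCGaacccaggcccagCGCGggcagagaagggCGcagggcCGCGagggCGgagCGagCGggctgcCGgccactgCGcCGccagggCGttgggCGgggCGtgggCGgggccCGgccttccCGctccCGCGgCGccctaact

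Within the 22 peaks, E2F motifs were found in 2, TCF1/LEF1 motifs (CTTTGAT or CTTTGTT) in 4, the STAT motif TTCNNNGAA in 2, the MYC/MAX motif CACGTG in 3 and the FOXO motif GTAAACA in none. Over the 23907 deposited peaks of the usual width, E2F motifs were in 358, and the shares of the others in that order were 18.6%, 11.9%, 8.35% and 5.47%. In promoter windows of the 10 genes, CACGTG was in 3 of 12, *Cdk4* with 4 copies, *Cdk6* and *Cdkn2c*, beside 7.15% of all windows. The *Cdkn2c* match lay in another window of that gene (chr4:109665323-109665622) than the promoter shown above. TCF1/LEF1 motifs were in 9.33% of all windows and in *Cdk4* here, GTAAACA in 3.65% and in *Ccnd3*, and TTCNNNGAA in 8.30% and in none. The next sequences, on the plus strand with the motif in capitals, are from peaks higher in UTX TCD, the first of a gene not called in RNA and the second of a called gene. CACGTG lay in the *Ccnd1* peak highest relative to WT (chr7:144943383-144943583), and CTTTGTT in a higher peak of *Cdk6* intron 2 (chr5:3356090-3356290). The *Ccnd3* peak with CACGTG, not shown, was lower in UTX TCD. A match describes these letters and not binding of a factor.
Ccnd1 peak: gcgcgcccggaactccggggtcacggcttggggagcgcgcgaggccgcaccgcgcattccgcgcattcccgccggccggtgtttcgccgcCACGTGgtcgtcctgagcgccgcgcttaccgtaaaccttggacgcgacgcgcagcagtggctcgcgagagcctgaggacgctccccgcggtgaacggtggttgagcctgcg
Cdk6 peak: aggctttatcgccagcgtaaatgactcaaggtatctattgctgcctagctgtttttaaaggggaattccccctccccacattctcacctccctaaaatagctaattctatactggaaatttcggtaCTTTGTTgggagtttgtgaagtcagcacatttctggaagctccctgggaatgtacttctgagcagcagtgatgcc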

How the data were processed

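RNA-seq and ATAC-seq of CD8+ progenitors were compared between UTX TCD and WT, 3 libraries per genotype and assay, grouped by the sample titles. The authors used FastQC for quality, HISAT2 2.2.1 for alignment to mm10 and featureCounts for genes, and deposited the signal per gene, a count divided by 1 DESeq2 size factor per library. The deposited ATAC-seq values were log2 concentrations per genotype from DiffBind for peaks called with MACS2 and annotated with HOMER; gene annotation, strand setting and any transposase shift are not given in the sources used here. The authors' own comparison columns (log2 fold change, its standard error, p-values, FDR) were not used.

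Dividing each library by its smallest step gave whole reads for 100% of values (tolerance 0.01), and depth ranged from 61512402 to 193568919 reads. The test was limma 3.58.1 under R 4.3.3 (trend, genotype only, pseudocount 1, mean of at least 10), after testing the script on simulated data. Count tests on the recovered reads were alternatives, with edgeR 4.0.16 calling 2541 genes and DESeq2 1.42.0 calling 2422. Ratios used exact permutation tests. Alternatives covered pseudocount, filter, scaling, test, replicate block, fold limit, peak limits and each library left out. The 10 genes and all lists were chosen with earlier results of these data known. Named were the 10 genes, called genes of the lists and the gene of each list farthest from 0, *Kdm6a*, markers, the 5 profiles nearest to *Cdkn1a*, and per gene the peaks with the largest rise and fall, except where not reported. *Ccne1*, *Mcm5*, *Pcna*, *Trp53*, genes overlapping or next to the 10, and peaks assigned to them were named after their values were seen. The study gives 3 biological replicates per genotype for ATAC-seq and 3 samples per group for both assays; the labels do not say which libraries came from separate mice, so p-values measure the spread between these libraries. A B cell marker, the sum of its list and 1 peak sequence are not reported here.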

Additional observations from a re-analysis of the deposited data

How the results depend on the processing

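The 3 calls among the 10 genes, *Cdk6*, *Cdkn1a* and *Cdkn2c*, and the direction of all 9 tested genes held under every alternative run. Over 17 alternatives, 151 of 153 values of the 9 genes kept their direction and call, and the other 2, *Ccnd3* (0.38) and *Cdkn2d* (-0.32), were called when no fold limit was set. The adjusted p alone crossed 0.05 in some alternatives for *Ccnd2*, *Cdk4*, *Cdkn1b* and *Cdkn2d*. Without a fold limit, 5 of the 10 genes, 35 genes of the pathway lists and 5887 genes in all were called, instead of 3, 21 and 2538, because the limit then removes no gene. With a limit of 1.5-fold, 18 pathway genes were called, *Cdc25a*, *Cks1b* and *Mcm2* losing their calls. Over the 15 alternatives that kept the fold limit, 431 of 434 values of named pathway genes kept direction and call. *Pcna* turned from -0.05 to 0.0117 and *Mcm5* was called at 0.52 when libraries were scaled to the same sum, where 23 pathway genes were called, and *Sesn1* (-0.50) lost its call without replicate 3 of UTX TCD. Leaving out each library gave 2164 to 2570 called genes, 20 to 22 pathway genes, log2 fold changes of 3.32 to 3.62 for *Cdkn1a*, and differences in log2 ratio of 0.05 to 0.17 (*Ccnd3* to *Ccnd2*), 0.50 to 0.60 (*Cdk6* to *Cdk4*) and -1.43 to -1.30 (*Cdkn2d* to *Cdkn2c*). With the replicate number as a block, 2474 genes were called, 3 of the 10 genes and 21 pathway genes. Deviations of same-numbered libraries correlated at 0.31, -0.20 and 0.09, and the labels do not say that a number marks a shared litter or day, so the numbers were not taken to pair the libraries. Replicate 1 of WT and of UTX TCD correlated best with each other, but replicates 2 and 3 did not. By a chi-square per gene between libraries, replicate 2 of WT stood apart, at 72.9 from replicate 1 and 110 from replicate 3. Replicates 1 and 3 of WT were at 29.1 from each other. Replicate 2 was also the WT library nearest to each UTX TCD library. The split of peaks, 15 higher and 7 lower, was 8 and 4 for concentration differences over 1 (65.1% higher of all such peaks), 9 and 1 within 10 kb of the start (76.6%), and 20 and 3 within 10 kb of the gene body whatever the assignment (70.4%), the last chosen after seeing the data. Fewer peaks pass the stricter limits by construction. Levels of *Cdkn2a* were limited by depth, most in replicate 1 of UTX TCD.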
